A study of Homo sapiens with 12 samples.

Results

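FKBP5, TSC22D3, PER1, ZBTB16, SGK1, DDIT4, TXNIP, ERRFI1, CEBPD and GLUL are widely used as target genes of the glucocorticoid receptor, and binding of the receptor (NR3C1) and of STAT5B was examined at these 10 genes. A region was taken as a member when its summit lay inside the gene's span on hg38 or within 50 kb of it. By that rule 86 of the 11908 regions in 8 peak lists were members, of which 41 were NR3C1 regions and 45 were STAT5B regions. Members that overlapped each other across lists were joined into 40 sites.

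Chromatin immunoprecipitation and sequencing (ChIP-seq) had been done in SUPT-1, a human T-lymphoblastic cell line. The cells overexpressed either STAT5B N642H (the N642H line), an activating mutant found in T-cell leukaemias, or wild-type STAT5B (the WT line). In both lines the transgene was induced with doxycycline, so all groups carried induced STAT5B, and no line without a transgene was analysed here. Cells were given the synthetic glucocorticoid prednisolone at 250 µg per ml for 16 hours or were left untreated. The 8 groups, with 1 library each, were therefore NR3C1 in the N642H line with prednisolone and untreated, NR3C1 in the WT line with prednisolone and untreated, and the same 4 for STAT5B. With 1 library per group no difference between libraries has a replicate check or a test, and the inputs were not analysed here.

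The glucocorticoid receptor is a nuclear receptor that waits in the cytoplasm in a chaperone complex, moves to the nucleus when it binds a steroid, and there binds inverted repeats in DNA, often far from the genes it regulates. STAT5B is a transcription factor that is phosphorylated by JAK kinases downstream of cytokine receptors, among them the interleukin-7 receptor in T-lineage cells. Both proteins are known to meet at the same DNA elements in some genes. In lymphoid cells glucocorticoids stop growth and induce cell death, which is why they are given in T-cell leukaemia.

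Each region has 2 values that the authors' peak caller gave it: the fold enrichment of the ChIP signal over the local background at the summit, and −log10 q. Regions were ranked within their list by −log10 q. Folds of different lists stand side by side as descriptions of their lists, since they are no measure of change between libraries.

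NR3C1 regions at the 10 genes were found only in the prednisolone lists. With prednisolone the N642H line had 24 member regions at 7 genes (FKBP5, TSC22D3, ZBTB16, SGK1, DDIT4, TXNIP and GLUL), where 16.7% of 20033 protein-coding genes had a region by the same rule. The untreated N642H line had 0 member regions, and its whole list held 2 regions, which put 0.0449% of genes within reach of one. In the WT line with prednisolone 17 member regions lay at 6 genes, the same genes without SGK1, against 6.44% of all genes. The untreated WT list also held 2 regions and 0 members, against 0.0449% of all genes. The order of the lines turned with list length: among the 995 strongest regions of each prednisolone list, the N642H line had 13 members at 5 genes and the WT line 17 at 6. A share of all genes was not computed for the shortened N642H list.

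The NR3C1 members included some of the strongest regions of their lists and some weak ones. By rank, 16 of 24 lay in the upper part of the N642H list, split at its middle, and 8 in the lower, and 11 of 17 lay in the upper part of the WT list and 6 in the lower. Their median fold was 14.5 against 8.26 over the whole N642H list, and 26.0 against 8.68 over the whole WT list. They made up 0.831% of the N642H list and 1.71% of the WT list, and in each list 9 of them were among the 100 strongest regions. In the N642H line 2 of the 10 strongest NR3C1 regions were members, at FKBP5 and DDIT4. In the WT line 3 of the 10 strongest were members, at FKBP5, TSC22D3 and DDIT4.

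STAT5B regions lay at 8 of the 10 genes in at least 1 list, ERRFI1 and CEBPD having none. With prednisolone the N642H line had 9 member regions at 5 genes (FKBP5, TSC22D3, PER1, DDIT4 and TXNIP), against 4.84% of all genes with a region. The untreated N642H line had 19 at 7 genes (FKBP5, PER1, ZBTB16, SGK1, DDIT4, TXNIP and GLUL), against 39.4% of all genes. With prednisolone the WT line had 7 member regions at 5 genes (FKBP5, TSC22D3, PER1, ZBTB16 and DDIT4), against 9.61% of all genes. The untreated WT line had 10 at 4 genes (FKBP5, PER1, DDIT4 and GLUL), against 23.2% of all genes. FKBP5, PER1 and DDIT4 thus had STAT5B in all 4 lists, and the share of all genes that did was not computed. Among the 446 strongest regions of each list, the N642H line had STAT5B at 5 genes with prednisolone and 2 untreated, and the WT line at 4 with prednisolone and 2 untreated. For these shortened lists no share of all genes was computed, so the counts cannot be set against the genome. Members were 2.02% of the STAT5B list with prednisolone and 0.418% untreated in the N642H line, and 0.914% with prednisolone and 0.441% untreated in the WT line.

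Member STAT5B folds were near those of their lists. Their medians were 6.95 with prednisolone and 5.99 untreated in the N642H line, against 6.77 with prednisolone and 6.13 untreated over the whole lists, and 8.08 with prednisolone and 6.95 untreated in the WT line, against 7.20 with prednisolone and 6.25 untreated. They ran from 5.08 to 11.2 in the N642H line with prednisolone, from 3.88 to 11.2 in untreated N642H cells, from 5.43 to 17.2 in prednisolone-treated WT cells and from 4.62 to 9.55 in untreated WT cells. The fragments at the summit, recovered from the deposited values, numbered 8 to 19 in the N642H line with prednisolone, 10 to 34 in untreated N642H cells, 13 to 38 in prednisolone-treated WT cells and 8 to 19 in untreated WT cells. The NR3C1 members rested on 11 to 253 fragments in the N642H line and on 14 to 162 in the WT line. At such low counts the absence of a STAT5B region from a list does not show that the protein was absent.

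**Figure D1:**
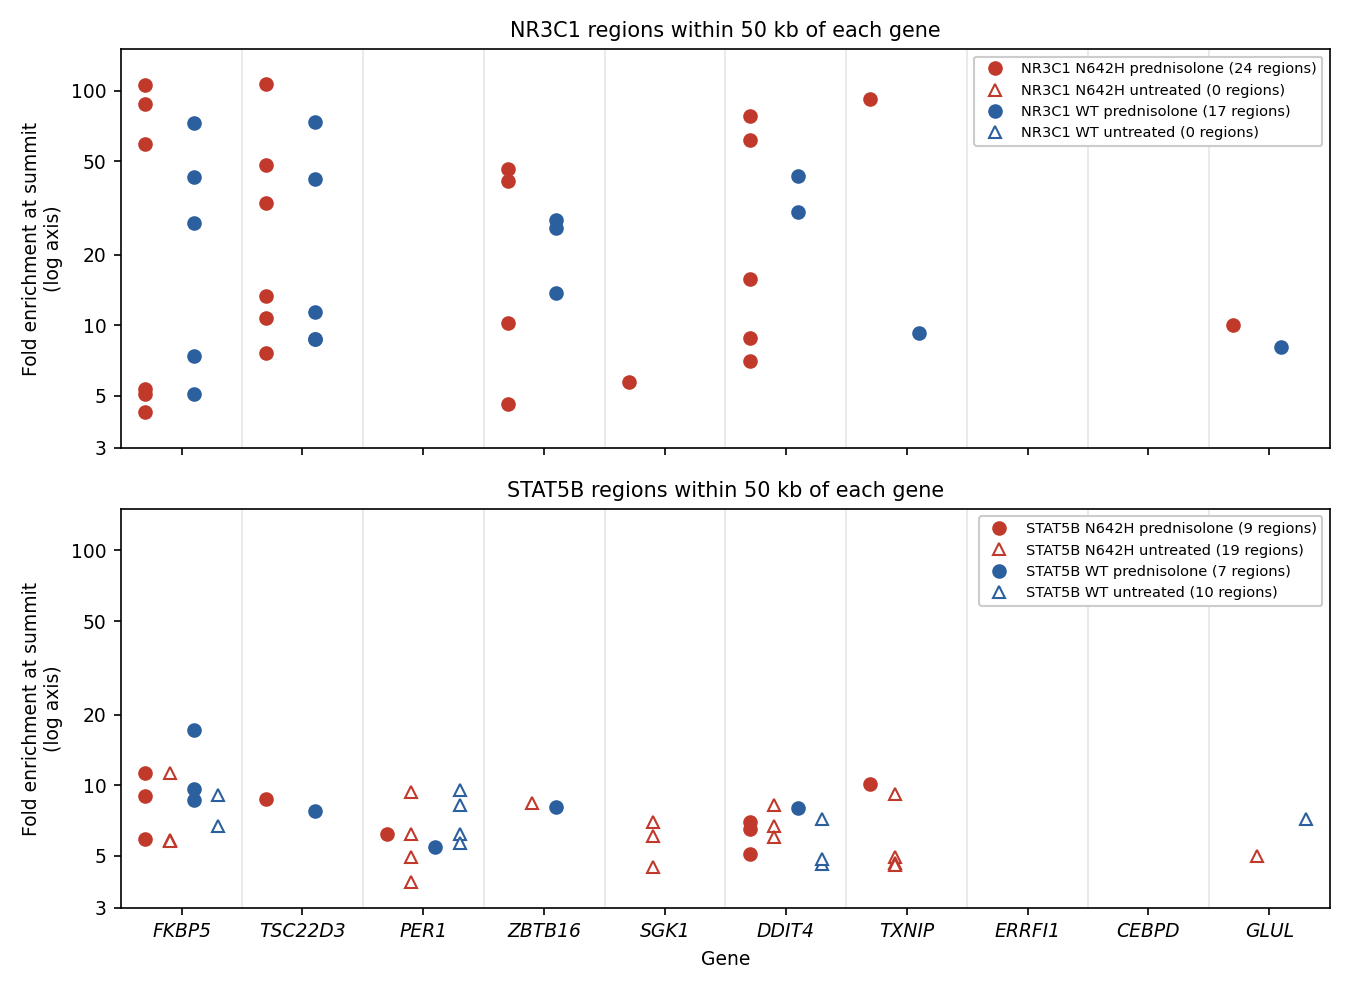
Fold enrichment at the summit (log axis) of every region within 50 kb of each of the 10 genes, for NR3C1 (top) and STAT5B (bottom); filled circles are prednisolone, open triangles untreated, red the N642H line and blue the WT line. With prednisolone NR3C1 has 24 regions in the N642H line and 17 in the WT line, and none untreated, and STAT5B folds stay at or below 17.2; points with equal folds lie on top of each other.

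FKBP5 encodes a co-chaperone of Hsp90 that lowers the receptor's affinity for steroid, and it held the largest number of member regions: 22 at 7 sites, 11 of NR3C1 and 11 of STAT5B. The gene spans chr6:35573590-35728583 on the minus strand. The 255 bases that follow run from 250 before to 4 after its most upstream RefSeq start site (GRCh38.p14, minus strand, chr6:35728579-35728833) and are shown because receptor regions of both lines reach into them. Capitals mark the 151 bases inside a WT NR3C1 region with prednisolone. All 255 bases lie inside the wider NR3C1 region of the N642H line.
FKBP5: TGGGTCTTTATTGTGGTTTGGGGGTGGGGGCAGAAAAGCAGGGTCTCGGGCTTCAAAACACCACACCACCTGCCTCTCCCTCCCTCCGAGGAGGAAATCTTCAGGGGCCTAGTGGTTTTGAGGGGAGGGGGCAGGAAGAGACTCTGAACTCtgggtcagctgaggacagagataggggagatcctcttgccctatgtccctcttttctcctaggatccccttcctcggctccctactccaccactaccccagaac

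At the FKBP5 start site the NR3C1 region of the N642H line (chr6:35727768-35729000) had a fold of 106 and rank 4 of 2888. Its summit lay 468 bp downstream of the start site and held 249 fragments. In the WT line the region chr6:35727801-35728463 had a fold of 73.0 and rank 2 of 995, with its summit 454 bp downstream and 162 fragments. A weaker WT region with a fold of 7.36, whose summit was 262 bp upstream, lay within the same N642H region. The receptor thus had its FKBP5 summit just inside the gene in both lines, 14 bp apart.

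STAT5B was called at the same place in all 4 STAT5B lists. In the N642H line its fold was 11.2 with prednisolone (rank 42 of 446) and 5.86 untreated (rank 1581 of 4542). In the WT line it was 17.2 with prednisolone, the strongest region of the 766 in that list, and 9.07 untreated (rank 149 of 2267). The 4 STAT5B summits lay between 363 and 503 bp downstream of the start site, on either side of the receptor's summits.

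At the site upstream of FKBP5, which lies inside the neighbouring gene ARMC12, NR3C1 had a fold of 87.9 in the N642H line (rank 18) and 27.3 in the WT line (rank 26), with summits 3450 and 3429 bp from the FKBP5 start. STAT5B was again in all 4 lists. Its strongest fold there was 9.0 with prednisolone and 11.2 untreated in the N642H line, and 9.63 with prednisolone and 6.71 untreated in the WT line. These were the only 2 of the 40 sites at which both prednisolone NR3C1 lists and all 4 STAT5B lists had a region. How many such sites the whole lists hold was not counted.

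The third strong FKBP5 site lay deep inside the gene, with summits 86820 bp (N642H) and 86823 bp (WT) downstream of the nearest annotated start site. NR3C1 had a fold of 59.2 in the N642H line (192 fragments) and 42.7 in the WT line (121 fragments). STAT5B was called there only in the WT line with prednisolone, with a fold of 8.68 and a summit 4 bp from the receptor's. The other 4 FKBP5 sites were each in 1 NR3C1 list: folds of 5.34, 4.27 and 5.09 in the N642H line and of 5.10 in the WT line, near the low end of their lists.

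**Figure D2:**
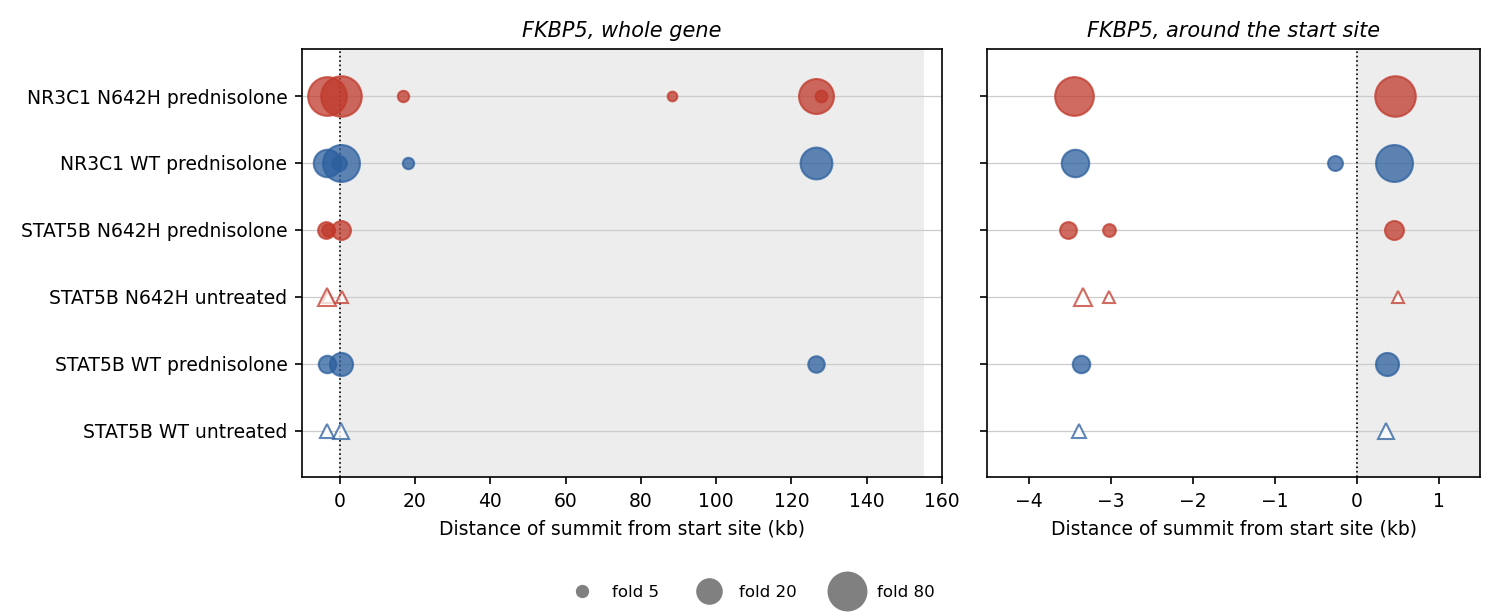
Regions at FKBP5 by list, with the distance of the summit from the start site in kb along the axis (negative is upstream), for the whole gene (left) and around the start site (right); grey is the gene, symbol size grows with fold, circles are prednisolone and triangles untreated. The sites just inside the start and about 3.4 kb upstream hold regions of all 6 lists shown.

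TSC22D3 encodes GILZ, the glucocorticoid-induced leucine zipper protein that carries part of the anti-inflammatory effect of these steroids. It held 13 regions at 6 sites, 11 of NR3C1 and 2 of STAT5B. The gene spans chrX:107713221-107775988 on the minus strand. Its strongest site lay 39001 bp (N642H summit) and 38996 bp (WT summit) beyond the 3′ end of the gene, 23194 and 23199 bp from PRPS1, the nearest protein-coding gene. NR3C1 had a fold of 106 there in the N642H line (chrX:107673933-107674476, rank 16, 191 fragments) and of 73.8 in the WT line (chrX:107674007-107674486, rank 5, 127 fragments).

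That site was also the only STAT5B site of TSC22D3, and STAT5B was called there only with prednisolone. The fold was 8.69 in the N642H line (rank 120 of 446, 11 fragments) and 7.78 in the WT line (rank 287 of 766, 13 fragments). Neither untreated STAT5B list had a region within reach of the gene. Together with the deep site of FKBP5 it was 1 of 2 sites where STAT5B was called with prednisolone and in no untreated list, and both lay on an NR3C1 region. Over all lists 41.8% of 225 such sites did, and 2 sites are too few to set against that share.

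At the other TSC22D3 sites NR3C1 was listed and STAT5B was not. A site 35996 bp beyond the gene had a fold of 48.3 in the N642H line and, at 35991 bp, of 42.1 in the WT line. A site inside the gene had a fold of 33.2 in the N642H line and 11.4 in the WT line. The local background there was 0.656 in the N642H line and 2 in the WT line, each on its own list's scale. The remaining sites were weaker. A site 2026 bp beyond the gene had a fold of 10.7 in the N642H line and 8.71 in the WT line, one at 12805 bp had 7.64 in the N642H line and 8.71 in the WT line, and a site inside the gene had 13.3 in the N642H line only.

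ZBTB16 encodes the zinc-finger repressor PLZF, and it held 9 regions at 4 sites, all inside the gene (chr11:114059711-114256770). NR3C1 had 4 regions in the N642H line, with folds of 46.3, 41.3, 10.3 and 4.63, and 3 in the WT line, with folds of 28.2, 26.0 and 13.8. The 3 WT regions each overlapped one of the N642H line. The strongest site, with NR3C1 summits at chr11:114160218 in the N642H line and chr11:114160219 in the WT line, was the only one with STAT5B. STAT5B was called there in untreated N642H cells with a fold of 8.39 and in the WT line with prednisolone with a fold of 8.08, so the lines differed in the treatment under which it was listed.

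DDIT4 encodes REDD1, an inhibitor of the growth-promoting kinase complex mTORC1. The gene is short (2113 bp, chr10:72273924-72276036) and held 17 regions at 7 sites, none inside it. Its strongest site lay 24932 bp upstream of the start site, 13132 bp from ANAPC16, with an NR3C1 fold of 77.9 in the N642H line (rank 6, 253 fragments) and, at 24936 bp, of 43.3 in the WT line (rank 8, 144 fragments). STAT5B folds at this site were 6.95 and 5.08 in 2 regions of the N642H line with prednisolone, 7.97 in prednisolone-treated WT cells and 4.62 in untreated WT cells. Untreated N642H cells had no STAT5B region there.

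A receptor site 18645 bp upstream of DDIT4 had a fold of 61.4 in the N642H line and, at 18635 bp, of 30.4 in the WT line, without STAT5B. A site 12731 bp upstream had an NR3C1 fold of 15.7 in the N642H line and no NR3C1 region in the WT line. STAT5B was called at that site with a fold of 6.47 in the N642H line with prednisolone, with folds of 8.20 and 6.70 in untreated N642H cells and with a fold of 7.19 in untreated WT cells. The other 4 sites were each in 1 list, with NR3C1 folds of 8.79 and 7.06 in the N642H line and untreated STAT5B folds of 5.99 in the N642H line and 4.83 in the WT line.

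TXNIP encodes a protein that binds thioredoxin and limits glucose uptake. Its 1 receptor site lay 10786 bp upstream of the start site (N642H summit), 10105 bp from HJV, and stood near the top of the N642H list and in the middle of the WT list. NR3C1 had a fold of 92.1 in the N642H line (chr1:146007095-146007607, rank 13 of 2888, 216 fragments), against 9.28 in the WT line (chr1:146007320-146007408, rank 505 of 995, 15 fragments). The local background was 1.36 in the N642H line and 0.553 in the WT line, each on its own list's scale. Of the 100 strongest N642H NR3C1 regions, 83 overlapped a WT region, 5 of them one with a fold below 10, and 17 overlapped none. TXNIP was singled out after its values were seen.

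STAT5B was called at the same TXNIP site only in the N642H line, with a fold of 10.1 with prednisolone (17 fragments) and 9.18 untreated (20 fragments). The nearest STAT5B regions of the WT line lay 380387 bp from the gene with prednisolone and 55654 bp from it untreated. The other 3 TXNIP regions were untreated N642H STAT5B regions between 39054 and 42879 bp upstream, with folds of 4.93, 4.66 and 4.59.

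**Figure D3:**
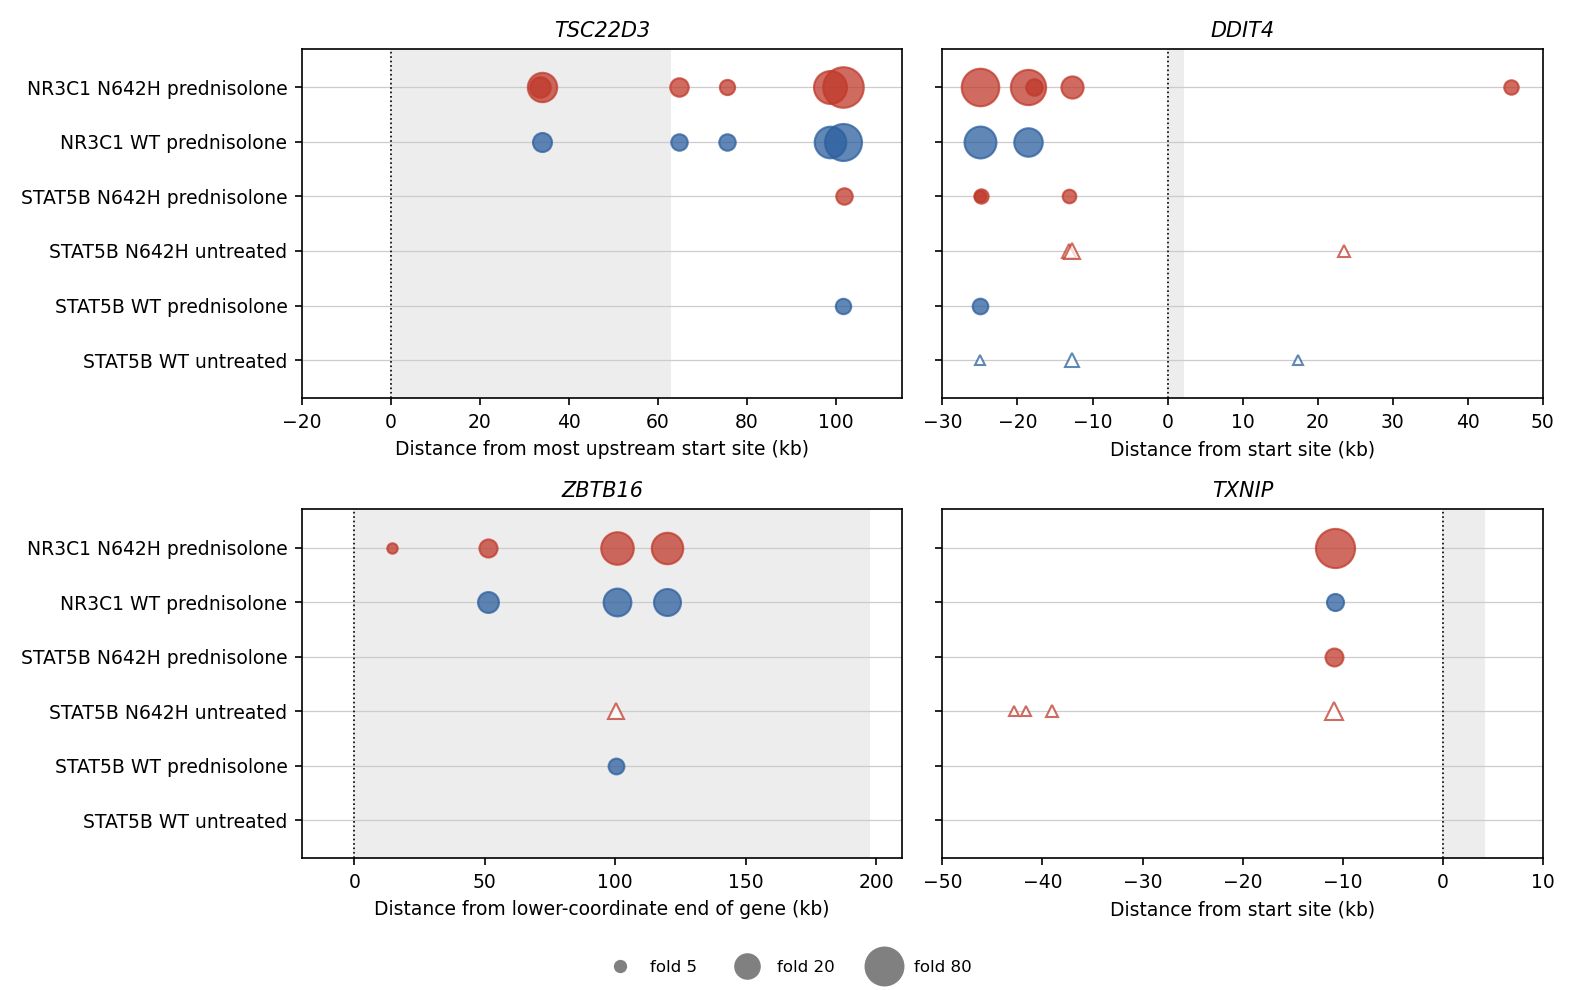
Regions at TSC22D3, DDIT4, ZBTB16 and TXNIP by list, with the summit's distance in kb from the start site (from the lower-coordinate end for ZBTB16); grey is the gene, symbol size grows with fold, circles are prednisolone and triangles untreated. The strongest receptor regions of TSC22D3, DDIT4 and TXNIP lie outside the genes, those of ZBTB16 inside, and the TXNIP site has a fold of 92.1 in the N642H line and 9.28 in the WT line.

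GLUL encodes glutamine synthetase and held 4 regions at 2 sites (gene span chr1:182378098-182391790, minus strand). NR3C1 had a fold of 9.98 in the N642H line, 1592 bp downstream of the start site, and of 8.10 in the WT line, 1573 bp downstream. STAT5B was called near the start site, with a summit 141 bp downstream and a fold of 5.0 in untreated N642H cells. In untreated WT cells the summit was 36 bp downstream, with a fold of 7.19. Of these regions only that of the WT line reached the start site. With prednisolone the nearest STAT5B regions lay 224414 bp (N642H) and 224455 bp (WT) from the gene. The start-site bases are shown because the untreated WT STAT5B region reaches into them. Capitals mark the 20 bases inside the untreated WT region (RefSeq GRCh38.p14, minus strand, chr1:182391786-182392040).
GLUL: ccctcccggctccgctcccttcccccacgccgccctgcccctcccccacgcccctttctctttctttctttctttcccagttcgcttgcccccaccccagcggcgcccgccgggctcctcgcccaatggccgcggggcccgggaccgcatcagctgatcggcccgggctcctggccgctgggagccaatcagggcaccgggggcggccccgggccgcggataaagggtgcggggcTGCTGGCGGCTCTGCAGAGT

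SGK1 encodes a kinase that raises the surface activity of ion channels and transporters, and its regions came only from the N642H line. NR3C1 with prednisolone had 1 region, 34182 bp upstream of the most upstream start site, with a fold of 5.75 and rank 2399 of 2888. Untreated STAT5B had 3 regions with folds of 6.06, 6.96 and 4.50, of which the weakest overlapped the receptor region. The nearest NR3C1 region of the WT line lay 704387 bp from the gene.

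PER1, a component of the circadian clock, had 10 STAT5B regions at 7 sites and no NR3C1 region; the nearest receptor region of the N642H line lay 303656 bp from the gene. In the N642H line there was 1 region with prednisolone, with a fold of 6.18, and 4 untreated, with folds of 9.33, 6.21, 4.94 and 3.88. The WT line had 1 with prednisolone, with a fold of 5.43, and 4 untreated, with folds of 9.55, 8.21, 6.18 and 5.64. Only the sites 1637 to 1646 bp beyond the 3′ end (N642H line) and 21071 to 21108 bp upstream, inside TMEM107, were called with prednisolone. The other summits lay nearest to ALOXE3, HES7, PER1 or BORCS6.

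ERRFI1, which encodes an inhibitor of the EGF receptor, and CEBPD, a leucine-zipper transcription factor, had no member region in any of the 8 lists. The nearest NR3C1 regions to ERRFI1 lay 675160 bp away in the N642H line and 143638 bp away in the WT line. STAT5B regions of the N642H line fell just outside the 50 kb limit for ERRFI1, at 50224 bp with prednisolone and 50264 bp untreated, with folds of 6.47 and 6.29. The member farthest from its gene was a DDIT4 region at 43673 bp. For CEBPD the nearest STAT5B region was in untreated N642H cells, at 56232 bp. The nearest NR3C1 regions to CEBPD were 383163 bp away with a fold of 47.1 in the N642H line and 383154 bp away with a fold of 26.0 in the WT line.

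The start-site windows of RefSeq (250 bases before to 50 after each start) matched 8 of the 10 genes, with 16 windows in all, and were searched for the receptor repeat ACANNNTGT and the STAT repeat TTCNNNGAA. Each repeat reads the same on both strands. The receptor repeat was in 3 of the 16 windows and in 5.37% of 35116 windows of all genes, and the STAT repeat was in 0 of the 16 windows and in 7.66% of all. The 3 windows were 1 of TXNIP, with the repeat 173 bases before the start, and 2 overlapping windows of TSC22D3 that share 1 repeat, 7 bases before the most upstream start. These windows are shown, with the repeat in capitals, because no receptor region reached them in either line (RefSeq GRCh38.p14, minus strand, chr1:145996575-145996829 and chrX:107775984-107776238). Farther out, TSC22D3 had strong receptor regions in both lines. TXNIP had a strong one in the N642H line, and its WT region had a fold of 9.28.
TXNIP: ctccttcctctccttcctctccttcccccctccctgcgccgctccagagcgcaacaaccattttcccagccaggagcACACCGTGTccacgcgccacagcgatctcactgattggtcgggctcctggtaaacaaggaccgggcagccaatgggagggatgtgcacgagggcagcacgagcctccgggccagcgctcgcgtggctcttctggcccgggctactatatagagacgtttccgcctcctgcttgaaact
TSC22D3: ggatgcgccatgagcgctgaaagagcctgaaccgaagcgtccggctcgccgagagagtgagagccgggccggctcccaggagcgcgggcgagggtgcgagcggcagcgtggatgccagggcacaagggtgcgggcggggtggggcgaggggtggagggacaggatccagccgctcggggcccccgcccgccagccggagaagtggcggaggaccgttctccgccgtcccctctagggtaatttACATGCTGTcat

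The receptor sites of the 2 lines were then compared. Of the 24 N642H member regions, 15 overlapped a WT region (62.5%, exact Clopper-Pearson 95% interval 40.6% to 81.2%), against 30.7% of the whole N642H list. Of the 17 WT member regions, 16 overlapped an N642H region (94.1%, 71.3% to 99.9%), against 89.9% of the whole WT list. For the WT list the members' share was near that of all its regions. The intervals cover counting error alone, and regions of 1 gene or site are not independent of each other.

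The receptor regions found in 1 line only were weaker at the median than those found in both. The 9 N642H members without a WT region had folds of 4.27 to 15.7 (median 5.75), and the 15 with one had folds of 7.64 to 106 (median 48.3). The 1 WT member without an N642H region had a fold of 5.10. Whether the whole lists show the same split was not examined. In the shared regions the summits of the 2 lines were 15 bp apart at the median, with a range of 1 to 89 bp, against a median of 22 bp over 887 regions of the list. The fold was higher in the N642H library at 13 of the 15 shared sites and in the WT library at 2; over all 895 overlapping pairs it was higher in the N642H library in 82.2%. Higher folds in the N642H library were thus common over the whole list.

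**Figure D4:**
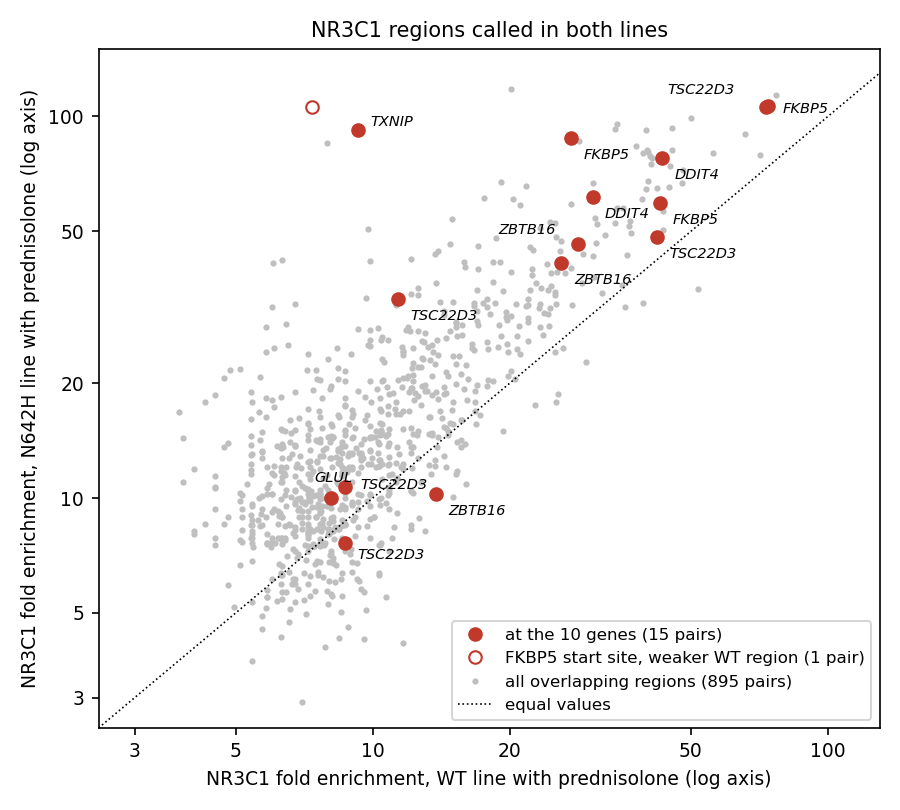
NR3C1 fold enrichment in the N642H line (vertical) against the WT line (horizontal), both with prednisolone and on log axes; red points are the 15 shared sites at the 10 genes, the open circle is the weaker WT region inside the FKBP5 start-site region, grey points are all overlapping pairs and the dotted line marks equal values. Most sites lie above the line, as grey points do, and TXNIP (92.1 against 9.28) lies far above it; FKBP5 and TSC22D3 coincide at the upper right.

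At the 10 genes most STAT5B regions of the prednisolone lists lay on receptor regions of the same line. In the N642H line 8 of 9 overlapped one (88.9%, 51.8% to 99.7%), against 53.6% of the whole list. In the WT line 6 of 7 did (85.7%, 42.1% to 99.6%), against 18.4% of the whole list. In both lines the exception was at PER1. FKBP5 alone gave 3 of the 6 overlapping WT regions, and FKBP5 and DDIT4 gave 3 each of the 8 in the N642H line. These counts thus rest on few genes. In the N642H line a site of FKBP5 and a site of DDIT4 were each counted more than once.

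Untreated STAT5B regions were set against the receptor regions that the same line had with prednisolone. Of those in untreated N642H cells 8 of 19 overlapped such a region (42.1%, 20.3% to 66.5%), against 17.7% of the whole list. Of those in untreated WT cells 3 of 10 did (30%, 6.67% to 65.2%), against 7.19% of the whole list. The difference between treated and untreated shares was not tested, since regions of 1 library are not replicates.

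A minority of untreated STAT5B members was listed again with prednisolone. In the N642H line 6 of 19 were (31.6%, 12.6% to 56.6%), against 6.87% of the whole list, and in the WT line 4 of 10 were (40%, 12.2% to 73.8%), against 19.9%. By site, STAT5B was called under both treatments within a line at 7 sites, of which 5 lay on receptor regions, where 44.4% of the 630 such sites in all lists did. ZBTB16 had both treatments, but in different lines. STAT5B was called only untreated at 14 sites, of which 1, at SGK1, lay on a receptor region, where 12.7% of 4640 such sites in all lists did. Of the 15 STAT5B sites without NR3C1, 13 were in untreated lists only and the other 2 were at PER1, a split near that of all lists (87.4% of 4631 in untreated lists only).

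Seen from the receptor, 6 of 24 members overlapped a STAT5B region of the same line with prednisolone in the N642H line (25%, 9.77% to 46.7%), against 7.76% of the whole list. In the WT line 6 of 17 did (35.3%, 14.2% to 61.7%), against 14.1%. These were stronger receptor regions: their folds ran from 15.7 to 106 (median 90.0) in the N642H line, where the other 18 had a median of 10.1, and from 27.3 to 73.8 (median 43.0) in the WT line, where the other 11 had a median of 9.28. Folds were not split in this way over the whole lists, so the trait may not be particular to these genes. The STAT5B summit was 65.5 bp from the receptor's at the median in the N642H line (8 regions) and 45.5 bp in the WT line (6 regions), against 46 bp in the N642H line and 42 bp in the WT line over the whole lists. Whether weak STAT5B signal at strong receptor regions is binding of STAT5B to DNA was not tested.

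Between untreated lines, STAT5B members were compared in the same way. Of the 19 regions in untreated N642H cells 6 overlapped one in untreated WT cells (31.6%, 12.6% to 56.6%), against 29.8% of the whole list. Of the 10 in untreated WT cells 5 overlapped one in untreated N642H cells (50%, 18.7% to 81.3%), against 61.4%. Both shares are near those of the lists.

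**Figure D5:**
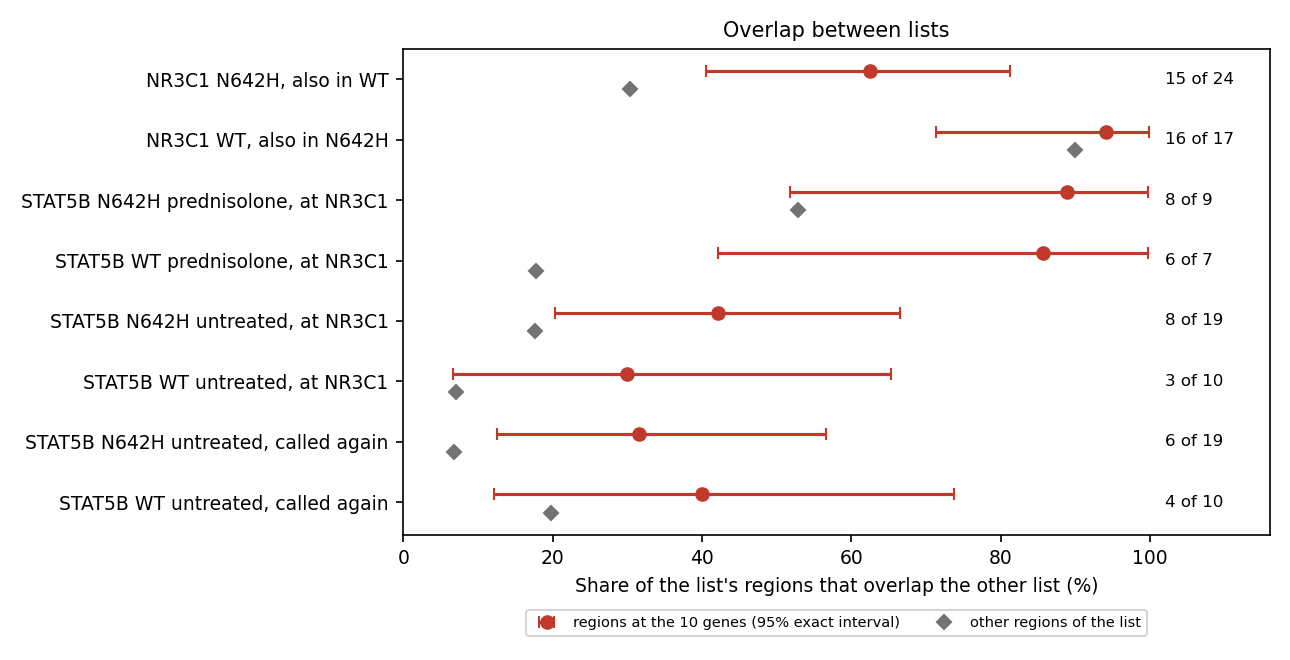
Share of each list's regions that overlap the named other list (percent), for regions at the 10 genes (red, with exact 95% intervals and counts) and for the other regions of the list (grey diamonds). The STAT5B regions with prednisolone at the 10 genes lie on NR3C1 regions in 8 of 9 (N642H) and 6 of 7 (WT) cases.

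Other glucocorticoid-response genes were read with the same rule. Of 20 such genes, 10 had an NR3C1 region with prednisolone in the N642H line and 7 in the WT line, and 0 in either untreated list. Over all protein-coding genes the NR3C1 shares under prednisolone were 16.7% (N642H) and 6.44% (WT). Each untreated NR3C1 list held 2 regions and reached 0.0449% of all genes, so 0 of 20 does not set these genes apart. KLF9, a zinc-finger factor, had an NR3C1 fold of 77.6 in the N642H line and 41.1 in the WT line, and DUSP1, a MAP kinase phosphatase, had 67.4 in the N642H line and 19.2 in the WT line. NFKBIA, which encodes the inhibitor of NF-κB, had 33.4 in the N642H line and 9.64 in the WT line, and ANGPTL4, an inhibitor of lipoprotein lipase, had 56.7 in the N642H line only. STAT5B regions were at 2 of the 20 genes with prednisolone and 5 untreated in the N642H line, and at 2 with prednisolone and 4 untreated in the WT line. Of all protein-coding genes, 4.84% had one with prednisolone and 39.4% untreated in the N642H line. In the WT line the shares were 9.61% with prednisolone and 23.2% untreated.

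The protein-coding gene whose pattern over the 8 lists was most like that of FKBP5 was KLF13, a Krüppel-like factor, at a Euclidean distance of 1.53 between the log2(1 + strongest −log10 q) values of the lists. CCND3, which encodes cyclin D3, and its neighbour TAF8 followed at 1.82, and both rested on the same regions.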

How the data were processed

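NR3C1 and STAT5B ChIP-seq of SUPT-1 cells was analysed from 8 peak lists, 1 per library. BWA, MACS2, deepTools and the build hg38 are named in the submitters' processing notes; versions, the control used by the caller and the library sizes are not given in the sources used here. Peaks were called per library, since each library has its own list. Each deposited peak carries a score, which equals 10 times the −log10 q cut to an integer, a fold enrichment (the ratio between the ChIP pileup and its local background at the summit), and −log10 p and −log10 q values (q of at least 2 on that scale in every list), all made by the authors. They were used as deposited, only to describe and rank peaks within a list.

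Regions on chromosomes 1 to 22, X and Y were kept, with coordinates counted from 1. Gene spans and start sites came from RefSeq GRCh38.p14 tables with 20033 protein-coding genes. Exons and introns were not analysed here. The fragments at a summit and their local background were derived from the fold (pseudocount 1) and the −log10 p under a Poisson model, for the 6 lists with over 50 regions. One fragment counted as 0.894 in the NR3C1 and 0.849 in the STAT5B list of the WT line with prednisolone, and as 1 in the others. Local backgrounds are on that scale of their list and are not counts of fragments where 1 fragment counted as less than 1. The lowest local background ran from 0.310 to 0.977, which is the measure of depth these files show. No member region had a background of 10 times that level or more. The recovery was tested on data simulated under the same model, which checks the calculation and not the model. The simulated counts did not reach the largest member counts.

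Regions overlapped when they shared 1 bp or more. Intervals of shares are exact Clopper-Pearson ones at 95%. The genes named were the 10 members, 20 other response genes (values for the 4 with the strongest NR3C1 region) and the 3 genes most like FKBP5. Members and lists were chosen with earlier results of these data known. The alternatives were a window of 20 or 100 kb, −log10 q of at least 5, lists of equal length, 2 other overlap rules and ranking by fold. Python 3.11.15, pandas 2.3.3, NumPy 2.4.6, SciPy 1.17.1 and matplotlib 3.10.9 were used.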

Additional observations from a re-analysis of the deposited data

Results flagged for a closer look

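In the lists as deposited the lines moved in opposite directions in 2 STAT5B measures, and with 1 library per group neither difference was tested. The number of the 10 genes with a STAT5B region was 5 with prednisolone and 7 untreated in the N642H line, a difference of -2, and 5 with prednisolone and 4 untreated in the WT line, a difference of 1. The opposite directions did not hold under other settings. With lists of equal length the number was higher with prednisolone in both lines (5 against 2 untreated in the N642H line, 4 against 2 in the WT line), and with a window of 20 kb it was lower in both (4 against 7 untreated in the N642H line, 2 against 4 in the WT line). With a window of 100 kb or −log10 q of at least 5, the WT line had equal numbers with prednisolone and untreated. Over all protein-coding genes, with the lists as deposited and the 50 kb window, the share was lower with prednisolone in both lines. It was 4.84% against 39.4% untreated in the N642H line and 9.61% against 23.2% untreated in the WT line. The other settings were not applied to all genes. Both lines had the shorter list with prednisolone: 446 regions with prednisolone and 4542 untreated in the N642H line, and 766 with prednisolone and 2267 untreated in the WT line.

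The strongest STAT5B fold at the site upstream of FKBP5 was 9.0 with prednisolone and 11.2 untreated in the N642H line, a difference of -2.23, and 9.63 with prednisolone and 6.71 untreated in the WT line, a difference of 2.92. The fragments behind these folds numbered 13 with prednisolone and 30 untreated in the N642H line, and 27 with prednisolone and 16 untreated in the WT line. These folds come from different lists, and their difference does not measure a change.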

How the results depend on the processing

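Of 125 values recomputed under the alternatives, 107 stayed within 1.5 times the count reported or within its interval, and 18 moved. None moved with a window of 100 kb, with either of the other overlap rules, or with ranking by fold. Some of the 107 could not move, so 107 of 125 overstates how stable the results were. With no member region, the untreated NR3C1 counts could not change under a smaller window, a stricter cut or shorter lists. Equal length left the WT NR3C1 and N642H STAT5B lists with prednisolone as they were. SGK1, TXNIP and GLUL had 1 NR3C1 region in each list with any, so ranking by fold could not change their strongest. With a window of 20 kb, the member regions numbered 11 for STAT5B in untreated N642H cells, 4 at 2 genes for STAT5B in prednisolone-treated WT cells and 6 for STAT5B in untreated WT cells, and 100% of the 4 WT STAT5B regions with prednisolone lay on NR3C1 regions. With −log10 q of at least 5, STAT5B had 5 regions in the N642H line with prednisolone, and the share was 100% for WT NR3C1 members also in the N642H line (16 of 16), and for STAT5B with prednisolone on NR3C1 in the N642H line (5 of 5) and the WT line (6 of 6). With lists of equal length (995 regions for NR3C1, 446 for STAT5B), N642H NR3C1 had 13 members at 5 genes and WT NR3C1 17 at 6; of the N642H members 84.6% were also in the WT line, and 70.6% of the WT members were also in the N642H line. Under the same setting STAT5B had 2 regions at 2 genes in untreated N642H cells and 3 regions at 2 genes in untreated WT cells, 100% of the untreated N642H regions (2 of 2) were called again, and 100% of the WT regions with prednisolone (6 of 6) lay on NR3C1. In that setting the longer lists lose their weaker regions by construction. For the other settings the cause was not tested beyond the smaller number of regions. Shares over all regions were not computed under the alternatives, so these member shares cannot be set against those of their lists.

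No paired analysis was possible because each group held 1 library. Shares rest on 7 to 24 regions, STAT5B members on as few as 8 fragments, and the lists hold no value where no region was called.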
